A study of Mus musculus with 7 samples.

Results

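The GIMAP genes encode GTPases of immunity-associated proteins, a family of GTP-binding proteins found mainly in lymphocytes. The 8 mouse members considered here, Gimap1 and Gimap3 to Gimap9, were matched by symbol in the deposited count table, and all 8 were found among its 55364 genes. Every member passed the filter on low counts, so all 8 were tested. The cells were CD4 T cells (gated CD45+CD3+CD4+) of lung tumours grown orthotopically in C57BL/6 mice older than 8 weeks, and transcript 3′ ends were sequenced. Both groups carried the floxed I-AbF/F allele (I-Ab is the MHC class II molecule of this strain) and received tamoxifen. The Control group (5 libraries) was I-AbF/F without a Cre, and the Cre group (2 libraries) was I-AbF/FCol1a2-cre, in which the Col1a2 promoter, active in fibroblasts and not restricted to one tissue, drives the recombinase. The comparison asks what CD4 T cells in the tumour express when fibroblasts, rather than the T cells themselves, are the target of the deletion.

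GIMAP proteins share an N-terminal GTP-binding domain, and several are anchored to membranes of organelles by hydrophobic C-terminal segments. They act in the survival and quiescence of resting lymphocytes. Loss of Gimap5 or Gimap1 in rodents depletes peripheral T cells, and Gimap6 has been linked to autophagy through its binding to a protein of the ATG8 family.

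The 8 genes lie together on chromosome 6 between 48647234 and 48770851 (mm10), within 124 kb, in the order Gimap8, Gimap9, Gimap4, Gimap6, Gimap7, Gimap1, Gimap5 and Gimap3. Gimap6 and Gimap3 are on the minus strand and the other 6 on the plus strand. The family is defined by its GTP-binding site, so the 8 codons of its phosphate-binding loop (the first match in each longest GENCODE M21 coding sequence) are shown here 5′ to 3′, with the codons of the closing glycine, lysine and serine in capitals:
Gimap8 (ENSMUSG00000064262), plus strand, chr6:48650256-48650279: gggaaacagggcgcaGGCAAAAGT
Gimap9 (ENSMUSG00000051124), plus strand, chr6:48677523-48677546: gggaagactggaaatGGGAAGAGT
Gimap4 (ENSMUSG00000054435), plus strand, chr6:48690421-48690444: ggaaaaactggagcaGGAAAGAGT
Gimap6 (ENSMUSG00000047867), minus strand, chr6:48702750-48702773: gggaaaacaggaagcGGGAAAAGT
Gimap7 (ENSMUSG00000043931), plus strand, chr6:48723524-48723547: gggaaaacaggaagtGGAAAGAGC
Gimap1 (ENSMUSG00000090019), plus strand, chr6:48742552-48742575: ggcaggactgggaccGGCAAGAGT
Gimap5 (ENSMUSG00000043505), plus strand, chr6:48752594-48752617: ggcaaatctggctgcGGTAAAAGC
Gimap3 (ENSMUSG00000039264), minus strand, chr6:48765887-48765910: ggcaaatctggctgcGGTAAAAGC
All 8 stretches are coding exon. Gimap5 and Gimap3 are identical over these 24 bases, while Gimap8 and Gimap7 differ at 10 of them. Gimap8, the longest member with 688 codons, holds 3 copies of the loop, and each of the others, with 291 to 328 codons, holds 1. Coding sequences were compared over their aligned bases only, which do not cover every sequence in full. Of the 2064 coding bases of Gimap8, 859 were aligned with Gimap7. Over aligned bases Gimap5 and Gimap3 were 90.4% identical (895 aligned bases), and every other pair was between 55.8% and 73.9% identical.

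That likeness bears on counting, since reads could be shared between copies. Coding sequences of Gimap5 and Gimap3 share 398 different 25-base words. The transcript sequence within their counted regions shares 0 such words, as it does for every other pair of members. The 249 bases past each gene's end, which are also counted, were not compared.

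Total counts ran from 1484655 to 1724346 in Control and were 1929899 and 1449739 in Cre, and counts of a single member in a library ran from 70 to 1438. The number of genes with a count was 14849 in Control replicate 1, 10151 to 10843 in the other Control libraries and 9052 and 7896 in Cre. Control replicate 1 and both Cre libraries thus stand apart in the number of genes detected, and the values without each of them are given where they move a result. In these libraries fewer cells of a kind and less RNA per cell cannot be told apart. Among tested genes, 25.01% had no count in Cre replicate 1 and 33.64% had none in Cre replicate 2. The share was 1.14% in Control replicate 1 and 12.27% to 16.05% in the other Control libraries. A count of 0 in Cre was thus common and, for a single gene, says little about that gene.

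As a family, the GIMAP genes were counted at a similar level in every library. Summed over the 8 genes they had 2347, 1893, 1881, 2069 and 1944 CPM (counts per 1000000 counts of the library) in Control replicates 1 to 5 and 1744 and 1880 CPM in Cre replicates 1 and 2. Cre replicate 1 was the lowest library, and Cre replicate 2 was nearly equal to the lowest Control library. The means were 2027 ± 194 CPM (SD, n = 5) and 1812 ± 96.2 CPM (n = 2), a ratio of 0.894 (exact two-sided permutation p = 0.0952, the smallest this design allows). Relative to 1000 counts of 18 T cell lineage genes the family had 180 to 291 counts over the Control libraries against 181 and 188 for Cre, and the groups overlapped (exact permutation p = 0.286).

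Fitted differences were mixed in sign. Of the 8 members, 2 had higher and 6 had lower fitted values in Cre, where 39.9% of the 9854 tested genes had higher and 60.1% lower values. The median log2 fold change was −0.28 for the members and −0.39 over all tested genes. Without Cre replicate 1 these medians were −0.34 and −2.40, and without Cre replicate 2 they were −0.41 and −1.22, and without Control replicate 1 they were −0.15 and −0.26. The filter on low counts was applied anew each time, so these all-gene medians cover other sets, of 11613, 11685 and 9189 genes. Among the 1861 tested genes at or above the lowest mean of a member (101 CPM), a set chosen after seeing the data, the median was −0.01 and 51.3% were lower. No member passed edgeR's quasi-likelihood test with Benjamini-Hochberg adjustment (adjusted p = 0.348 to 0.9999), where 0.0101% of tested genes passed as lower and 0 of 9854 as higher. At an unadjusted edgeR p under 0.05, 1 member (Gimap6) had lower values and 0 had higher values, against 10.2% and 1.41% of tested genes. The pair of Cre libraries exceeded all Control libraries for 1 member (Gimap8) and lay below all of them for 3 (Gimap6, Gimap7 and Gimap3), against 4.05% and 10.9% of tested genes (6.29% and 6.72% of the 1861 more abundant ones). DESeq2 called 1 member, Gimap6, as lower, against 6.16% of tested genes and 1.13% of the more abundant set, and 0 as higher, against 0.355%. By limma voom 0 members were called (smallest adjusted p = 0.325), against 0.0304% of tested genes as higher and 0 as lower.

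**Figure D1:**
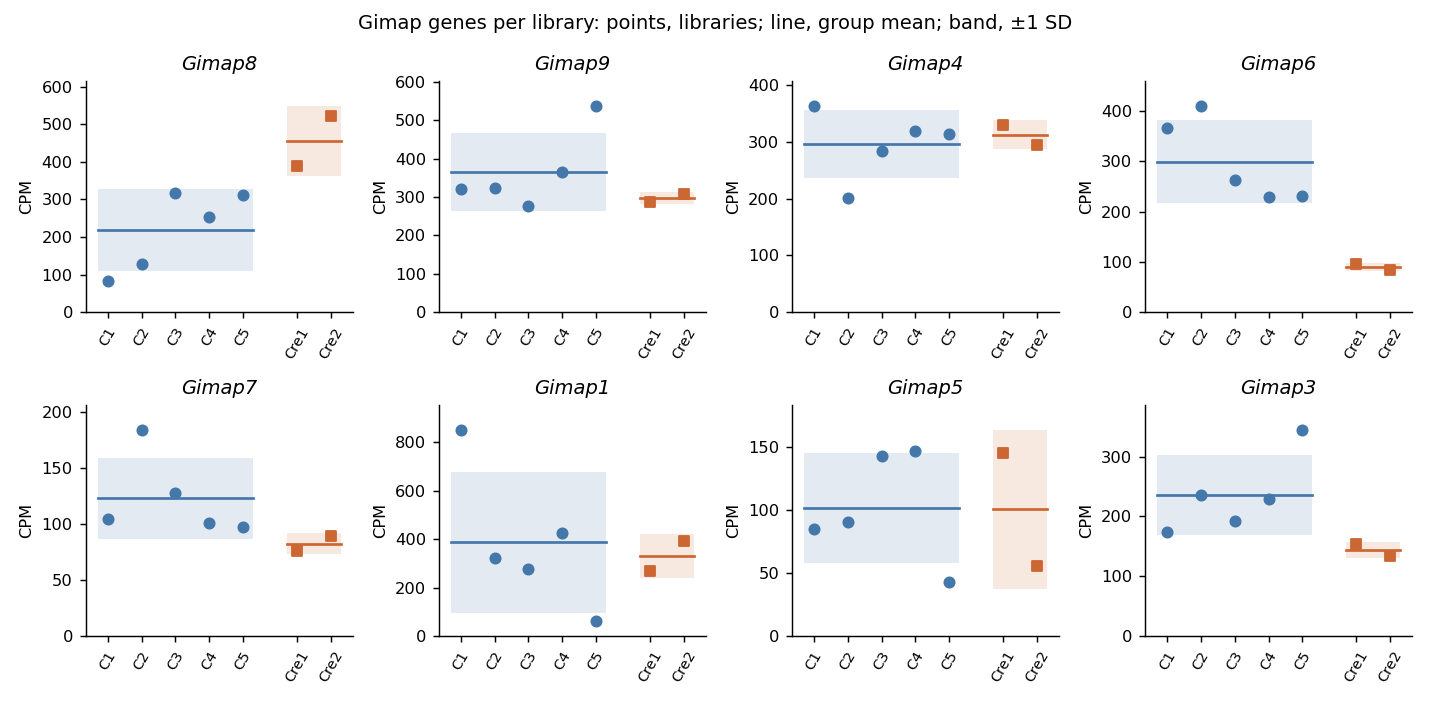
Level of each GIMAP gene in CPM (vertical axes, each from 0) in the 5 Control libraries (C1 to C5, circles) and the 2 Cre libraries (squares), with the group mean as a line and 1 SD either side as a band. Both Cre points lie above all Control points for Gimap8 and below all of them for Gimap6, Gimap7 and Gimap3.

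Gimap6 was the member with the largest difference. It encodes the family member that binds an ATG8 protein. The 5 Control libraries held 616, 609, 426, 394 and 376 counts of Gimap6 against 183 and 121 for Cre, or 365, 410, 262, 228 and 231 CPM against 94.8 and 83.5 CPM. Both Cre libraries were far under the lowest Control library, and the groups did not overlap. The means were 299 ± 83.3 CPM (SD, n = 5) and 89.1 ± 8.03 CPM (n = 2), 3.36-fold lower in Cre. The log2 fold change was −1.75 ± 0.48 (SE; 95% interval −2.80 to −0.69, edgeR unadjusted p = 0.00356, adjusted p = 0.348). DESeq2 gave −1.63 with an adjusted p of 0.013, and limma voom −1.67 with an adjusted p of 0.325. In the authors' deposited table Gimap6 had a log2 fold change of −1.63 and a DESeq2 FDR of 0.0156, and it was the only member under 0.05 there. That table gave the other 7 members FDR values from 0.636 to 0.984, and over all its genes it called 3.64% as lower and 0.211% as higher. The gene spans 48701582 to 48708225 on the minus strand of chromosome 6. All counts of Gimap6 came from 1 region of 3089 bases (chr6:48701333-48704421), of which 2135 bases are UTR, 705 are coding in at least 1 transcript and 249 lie past the gene's end. The log2 fold change stayed between −1.83 and −1.61 when each library was left out in turn.

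Gimap8 differed in the other direction. It encodes the long member with 3 loop copies. The Control libraries held 138, 190, 517, 438 and 508 counts of Gimap8 against 751 and 756 for Cre, or 81.9, 128, 318, 254 and 312 CPM against 389 and 521 CPM. Control replicates 1 and 2 were low, the other 3 Control libraries were higher, and both Cre libraries were above all of them. The means were 219 ± 108 CPM and 455 ± 93.6 CPM, 2.08-fold higher in Cre. The log2 fold change was 1.08 ± 0.50 (95% interval −0.01 to 2.17), and it did not pass edgeR (unadjusted p = 0.0518, adjusted p = 0.429), DESeq2 (adjusted p = 0.277) or limma voom (adjusted p = 0.358). It was 0.89 without Control replicate 1, the library with the lowest value. The gene spans 48647234 to 48660875 on the plus strand, and its 1 region (chr6:48658841-48661124) has 1509 UTR, 526 coding and 249 downstream bases.

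Gimap8 and Gimap6, the members with the largest differences, were then set against each other, a comparison chosen after the values were seen. The ratio of Gimap8 to Gimap6 counts, which no library scaling can move, was 0.224, 0.312, 1.21, 1.11 and 1.35 in Control and 4.10 and 6.25 in Cre. Both Cre ratios exceeded all Control ratios, which follows from Gimap8 lying above and Gimap6 below every Control library and is not a further result. Among Control libraries, replicates 1 and 2 had the most Gimap6 and the least Gimap8. No such opposition appeared among replicates 3 to 5, where replicate 3 had the most of both (262 CPM of Gimap6 and 318 CPM of Gimap8). As a share of all GIMAP counts, Gimap8 held 3.49% to 16.9% in Control and 22.3% and 27.7% in Cre, and Gimap6 held 11.04% to 21.7% in Control and 5.44% and 4.44% in Cre. The shares of Gimap9, Gimap4, Gimap7, Gimap1, Gimap5 and Gimap3 overlapped between the groups.

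**Figure D2:**
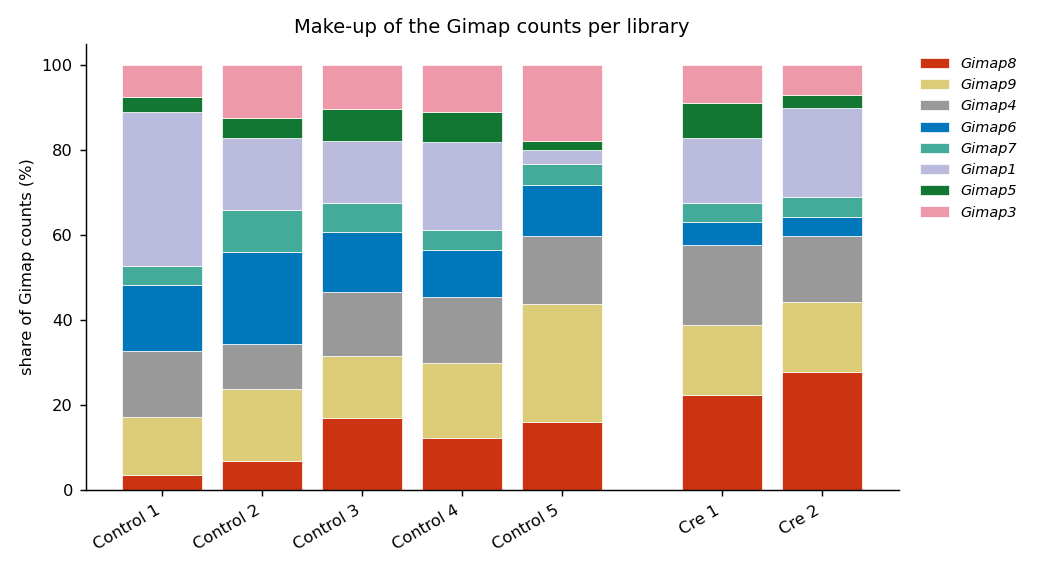
Share of each GIMAP gene in the GIMAP counts of a library (percent, stacked to 100) for the 5 Control and 2 Cre libraries. Gimap8 at the bottom makes up 22.3% and 27.7% in Cre and at most 16.9% in Control, while Gimap6 makes up 5.44% and 4.44% in Cre and at least 11.04% in Control.

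Gimap3 and Gimap5, the pair with the most alike coding sequences, were placed differently. Gimap3, whose protein resembles Gimap5, had 174, 235, 192, 230 and 345 CPM over the Control libraries against 153 and 134 CPM for Cre. Both Cre libraries were below the lowest Control library. The means were 235 ± 66.7 and 144 ± 13.8 CPM, with a log2 fold change of −0.69 ± 0.46 (95% interval −1.68 to 0.30, edgeR adjusted p = 0.537). Gimap5, which is needed for the survival of peripheral T cells, had 84.8, 90.3, 143, 147 and 43.0 CPM over the Control libraries against 146 and 55.9 CPM for Cre. The Cre libraries were near the top and near the bottom of the Control range. Its log2 fold change was −0.00018 (95% interval −1.57 to 1.57), moving to 0.56 without Cre replicate 2 and to −0.85 without Cre replicate 1, so its direction is not settled by these libraries.

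Gimap1 was the most variable member. It encodes a protein that mature T and B cells need to persist. It had 853, 321, 277, 424 and 62.7 CPM over the Control libraries against 266 and 393 CPM for Cre, and the Cre values lay inside the Control range. The Control spread was 13.6-fold from lowest to highest, a coefficient of variation of 75.3%, while the median was 38.7% over the 1861 tested genes of like or greater abundance. Its log2 fold change was −0.28 ± 0.73 (edgeR adjusted p = 0.936) and turned to 0.31 without Control replicate 1. Nearly all of its counts (99.8%) came from the region at its 3′ end (chr6:48743359-48744044).

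Gimap4 and Gimap9 had Cre values within their Control ranges. Gimap4, a member that promotes the death of T cells once apoptosis has begun, had 364, 201, 284, 319 and 314 CPM over the Control libraries against 331 and 295 CPM for Cre. Its coefficient of variation in Control, 20.3%, was the lowest of the 8, and its log2 fold change was 0.08 (95% interval −0.79 to 0.94, edgeR adjusted p = 0.966), with a sign that turned with upper-quartile factors (−0.03). Gimap9 had 320, 323, 277, 367 and 538 CPM over the Control libraries against 288 and 308 CPM for Cre. Control replicate 5 was the highest (coefficient of variation in Control 27.9%), and its log2 fold change was −0.28 (95% interval −1.13 to 0.57, edgeR adjusted p = 0.849). Neither interval excludes a moderate difference in either direction.

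Gimap7, whose GTPase activity depends on pairing of the protein with itself, had 104, 185, 128, 101 and 97.7 CPM over the Control libraries against 76.2 and 89.0 CPM for Cre. Both Cre libraries were below the lowest Control library (log2 fold change −0.57 ± 0.61, edgeR adjusted p = 0.775). This depended on which of its 3 counted regions were summed. The region at the 3′ end (chr6:48724364-48724885, with 273 bases of 3′ UTR) had 113, 156, 133, 147 and 33 counts over the Control libraries against 128 and 117 for Cre. An upstream window of 249 bases (chr6:48719671-48719919), which lies in the intron of the coding transcripts and begins just past the end of the annotated retained-intron transcript Gimap7-202, had 60, 118, 29, 27 and 126 counts over the Control libraries against 10 and 12 for Cre.

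With the 3′ end region alone, Gimap7 averaged 71.9 ± 31.9 CPM over the Control libraries against 73.5 ± 10.2 CPM for Cre, the groups overlapped, and the log2 fold change was 0.01. The intron window held 13.9% to 79.2% of Gimap7 counts in Control and 6.80% and 9.30% in Cre (means 37.2% ± 26.6 and 8.05% ± 1.77; exact two-sided permutation p = 0.0952, the smallest this design allows, adjusted 0.333 over 7 region shares). In Control replicate 5 this window outweighed the 3′ end. Gimap5 also had counts away from its 3′ UTR, at the end of 2 of its non-coding transcripts (chr6:48747486-48747761). There it had 50, 66, 124, 31 and 1 counts over the Control libraries against 84 and 1 for Cre, or 1.43% to 53.2% of its counts in Control and 29.9% and 1.23% in Cre. These shares overlapped between the groups (exact permutation p = 0.381, adjusted 0.667). Gimap4 had 98.8% of its counts in 1 region, and Gimap8, Gimap9, Gimap6 and Gimap3 each have a single one.

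**Figure D3:**
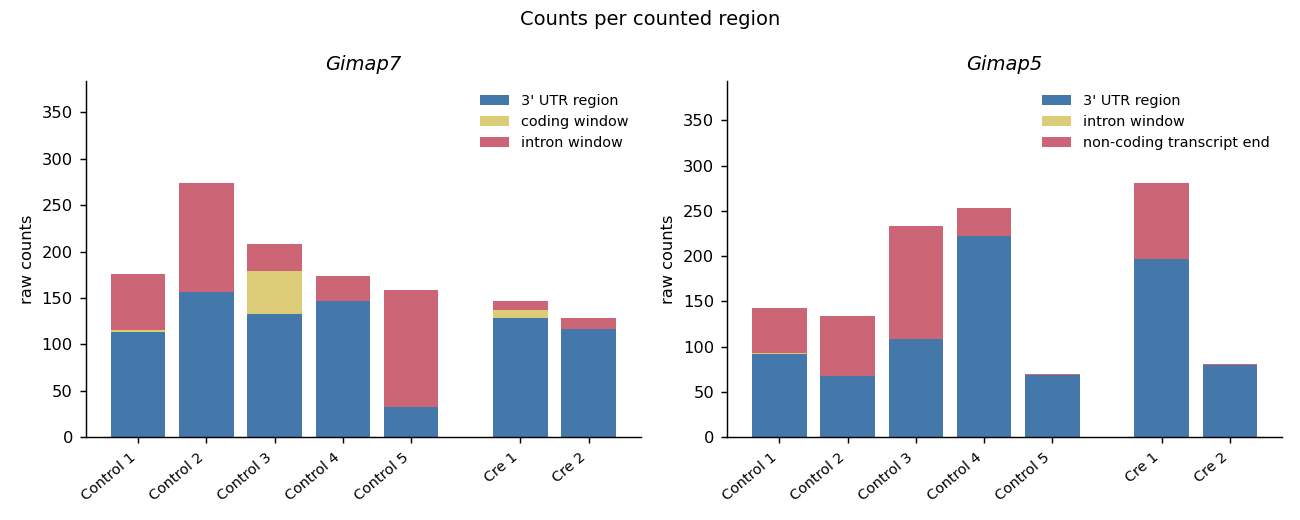
Raw counts of Gimap7 (left) and Gimap5 (right) per library (vertical axes from 0), stacked by counted region. The intron window of Gimap7 holds 27 to 126 counts in the Control libraries and 10 and 12 in Cre, while its 3′ UTR region holds 128 and 117 in Cre.

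None of the members' counted regions overlapped another gene's region on their own strand. Whether the counting used strand was not stated in the sources used here. On the other strand, Gimap5 overlaps a region of the non-coding gene Gm44226, which had no count. Gimap1 has an antisense transcript, Gimap1os, with 22, 0, 44, 0 and 1 counts in Control and 0 in both Cre libraries (edgeR adjusted p = 0.433). Its regions do not overlap those of Gimap1.

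Per kilobase of the most used region, Gimap1 stood highest in Control with 564 ± 426 CPM per kb, followed by Gimap9 (362 ± 101), Gimap4 (289 ± 54.8) and Gimap3 (269 ± 76.3). The gap below Gimap3 was larger than the spread of either neighbour. Gimap7 (138 ± 61.1), Gimap6 (96.9 ± 27.0), Gimap8 (95.8 ± 47.3) and Gimap5 (65.4 ± 34.2 CPM per kb) made up the lower group. All other neighbours in this order differed by less than the larger SD of the pair. In Cre, Gimap8 stood at 199 ± 41.0 and Gimap6 at 28.9 ± 2.60 CPM per kb. The regions range from 522 to 3089 bases, and reads from 3′ ends need not spread evenly over them, so these levels are approximate.

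**Figure D4:**
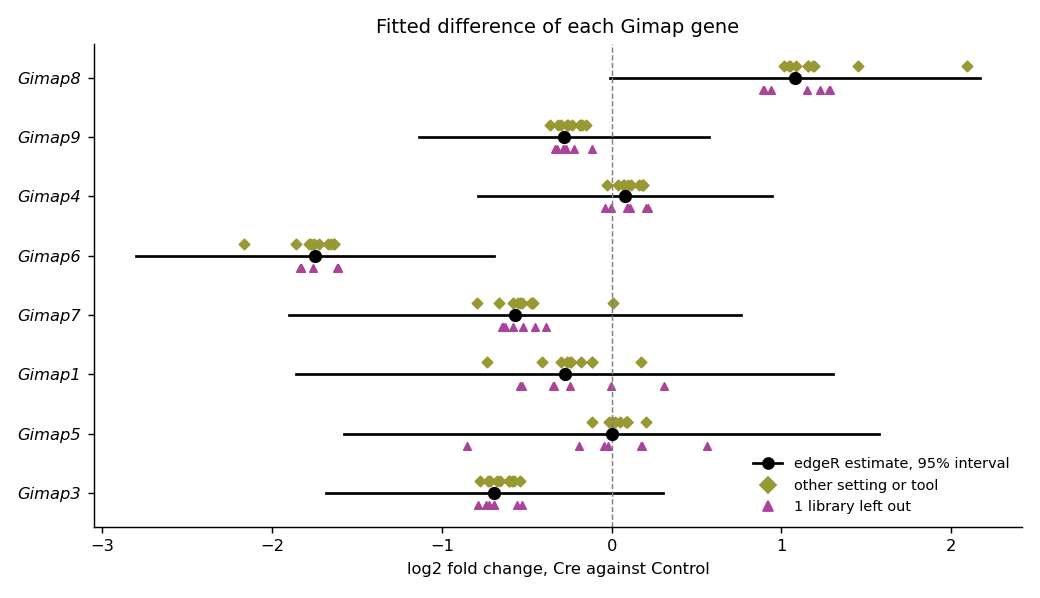
Log2 fold change of each GIMAP gene, Cre against Control (horizontal axis), as fitted by edgeR with its unadjusted 95% interval (black), under other settings or tools (diamonds) and with 1 library left out (triangles). Gimap6 lies between −2.16 and −1.61 and Gimap8 between 0.89 and 2.09 in the settings drawn, while points of Gimap4, Gimap7, Gimap1 and Gimap5 fall on both sides of 0.

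The likeness of profiles was measured over the 7 libraries as the root mean square difference of log2 CPM after centring each gene on its mean. Profiles were not scaled, so the measure also reflects how much each gene varied. A gene that varied little lies near any sum that varied little, whatever the shape of its profile. Among the 28 pairs of members the closest were Gimap9 and Gimap3 (0.24) and Gimap9 and Gimap4 (0.37), and the farthest were Gimap8 and Gimap1 (1.64) and Gimap8 and Gimap6 (1.61), with a median of 0.89. Gimap5 and Gimap3 stood at 0.87. The 5 protein-coding genes closest to the family's sum, out of 4563 with at least 30 CPM, were Rps10, a ribosomal protein (0.13), Eif4g2, a translation initiation factor (0.16), Ccdc88c (0.17), the cyclin Ccnd2 (0.17) and the interleukin-4 receptor chain Il4ra (0.17). Rps10 had 971 to 1478 CPM over the Control libraries against 859 and 892 CPM for Cre. The median over all these genes was 1.11. The members themselves stood farther from the family's sum than Rps10, from 0.23 (Gimap4) to 0.99 (Gimap1).

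The GIMAP cluster stood out from its surroundings in abundance. Of 33 other genes within it or within 200 kb, 17 had no count and 10 were tested, and the highest mean among them was 26.4 CPM, against 101 CPM for the lowest member. None of the 10 passed edgeR (Gimap1os, 4833403J16Rik, Zfp862-ps, Gm10243, Atp6v0e2, Lrrc61, Repin1, Zfp775, Tmem176a and Tmem176b). Over all tested genes edgeR called 0.0101% as lower and 0 as higher, so this says little about the neighbours. Zfp862-ps, a pseudogene, had 5, 0, 3, 0 and 1 counts over the Control libraries against 94 and 16 for Cre (edgeR adjusted p = 0.422). Gm28053, annotated across Gimap7, Gimap1 and Gimap5, had 1 count in all.

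Genes of the processes in which GIMAP proteins act showed no call by edgeR, which called 0.0101% of all tested genes as lower and 0 as higher. With so few calls in all, their absence here says little about these genes. Of 13 tested BCL2 family genes, which set the threshold for mitochondrial apoptosis, 7 had higher and 6 lower fitted values (median 0.05), with 0 at an unadjusted edgeR p under 0.05. The shares over all tested genes, for this and the next 2 lists, were 39.9% higher and 60.1% lower by fitted value (median −0.39), and 1.41% higher and 10.2% lower at that p. The survival factor Bcl2 had 417 ± 195 CPM over the Control libraries against 269 and 185 CPM for Cre, and Bcl2l11, which encodes the death activator BIM, had 185 ± 53.0 CPM over the Control libraries against 140 and 57.9 CPM for Cre. Mcl1, another survival factor, had 1443 ± 519 CPM over the Control libraries against 1018 and 746 CPM for Cre. All 3 overlapped between the groups. Bax, picked once its values were known, went the other way, with 230 ± 60.7 CPM over the Control libraries against 303 and 321 CPM for Cre. Both Cre libraries were above all Control libraries (log2 fold change 0.44 ± 0.43, edgeR adjusted p = 0.738). Bmf, the BCL2 family gene with the smallest p, had 0, 40, 0, 49 and 0 counts in Control and no count in Cre.

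Of 24 genes of interleukin-7 receptor signalling and lymphocyte quiescence, 15 had higher and 9 lower fitted values (median 0.13), with 2 higher (Satb1 and Tcf7) and 1 lower (Foxo1) where the unadjusted edgeR p was under 0.05. The chromatin organiser Satb1 had 292 ± 45.5 CPM over the Control libraries against 288 and 1028 CPM for Cre, and the transcription factor Foxo1, which drives Klf2 and Il7r, had 330 ± 99.7 CPM over the Control libraries against 177 and 125 CPM for Cre. Tcf7, outside the rule for named genes, had 420 ± 149.6 CPM over the Control libraries against 793 and 706 CPM for Cre. Il7r, the receptor chain for that survival cytokine, had 382 ± 150 CPM over the Control libraries against 407 and 764 CPM for Cre. Klf2 (469 ± 162 CPM in Control, 559 and 406 CPM in Cre) and its target S1pr1, the receptor for exit from tissue (219 ± 95.5 CPM in Control, 182 and 206 CPM in Cre), overlapped between the groups. Of 25 autophagy genes, 12 had higher and 13 lower fitted values (median −0.02), with 1 higher (Map1lc3b) and 2 lower (Pik3c3 and Atg13) by the same threshold. Pik3c3, the lipid kinase that starts autophagosomes, had 28, 14, 3, 62 and 14 counts in Control. Atg13, of the initiating kinase complex, had 45, 84, 0, 22 and 21 counts there. Both genes had no count in Cre, where 25.01% (replicate 1) and 33.64% (replicate 2) of all tested genes had none. Atg13 was the only gene of these 25 that DESeq2 called, where it called 6.16% of all tested genes as lower and 0.355% as higher. Gabarapl2, the ATG8 protein that Gimap6 binds, had 128 ± 90.3 CPM over the Control libraries against 155 and 98.6 CPM for Cre. Map1lc3b, another ATG8 protein, picked once its values were known, had 185 ± 46.7 CPM over the Control libraries against 373 and 330 CPM for Cre, higher than all Control libraries (log2 fold change 0.93 ± 0.41, edgeR adjusted p = 0.427). Sqstm1, an autophagy receptor, had 143 ± 81.0 CPM over the Control libraries against 32.6 and 182 CPM for Cre.

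The sort was checked on its markers. The 18 T cell lineage genes summed to 8058 to 10800 CPM over the Control libraries against 9614 and 9994 CPM for Cre, and Cd4 stood at 300 ± 104 and 385 ± 8.72 CPM. Cd3e, a chain of the T cell receptor complex, had 51 to 405 counts over the Control libraries against 116 and 3 for Cre. In Cre replicate 2, 5 of the 18 genes (Cd3e, Cd3g, Cd2, Cd28 and Lck) were below every Control library, while Cd6 and Bcl11b were above all of them. In Cre replicate 1, Bcl11b was below and Cd247 above every Control library. Among other cells that express GIMAP genes, NK cell markers (14 genes) summed to 17.4 to 53.2 CPM over the Control libraries against 65.3 and 74.5 CPM for Cre, with Ncr1 at 0 in every library. Both Cre libraries were above all Control libraries in this sum, with 98 counts of Klrc2 in Cre replicate 1 and 107 of Gzma in Cre replicate 2. Of 4 tested NK markers 2 had higher and 2 lower fitted values, against 39.9% and 60.1% of all tested genes. Klrb1c had 12, 4, 1, 28 and 0 counts in Control and 0 in both Cre libraries. Klrk1, also lower, had 19, 35, 17, 0 and 1 against 10 and 0. No count was found in either Cre library for 9 of the 14 genes. B cell markers (14 genes) summed to 42.3 to 354 CPM over the Control libraries against 166 and 44.1 CPM for Cre, with Cd79a at 0 or 1 count. Ighm, the IgM heavy chain, made up most of this sum, with 18.6 to 353 CPM over the Control libraries against 94.8 and 40.7 CPM for Cre, and Ighd, the IgD heavy chain, had 123 counts in Cre replicate 1 and at most 1 elsewhere. Endothelial markers (15 genes) summed to 64.5 to 144 CPM over the Control libraries against 77.7 and 6.21 CPM for Cre, with Cdh5 at 0 in every library. Pecam1, an endothelial adhesion molecule, had 28 to 102 counts over the Control libraries against 128 and 9 for Cre. Ramp2, the other tested marker of this list, had 83, 66, 130, 79 and 44 counts in Control. In Cre it had 15 and 0, below all Control libraries (edgeR adjusted p = 0.429). The 2 CD8 T cell markers summed to at most 9.49 CPM in Control and to 0 in Cre, with Cd8a at 0 or 1 count. The 12 epithelial and tumour cell markers summed to 0.614 to 25.2 CPM over the Control libraries against 58.0 and 1.38 CPM for Cre, with Epcam at 0 to 3 counts. Cre replicate 1 was the highest library here, with 63 counts of Cldn4 (0 to 3 in Control) and 49 of Cdh1 (0 to 41 in Control). The 21 myeloid markers summed to 14.5 to 92.9 CPM over the Control libraries against 28.5 and 4.83 CPM for Cre. Of 5 tested myeloid markers 1 had higher and 4 lower fitted values. Lyz2 was at 0 in both Cre libraries. Marco went the other way in Cre replicate 1, with 19, 0, 0, 0 and 28 counts in Control against 37 and 0 for Cre. Xcr1, which was not tested, had 3, 0, 0, 0 and 0 counts against 14 and 0. The 12 fibroblast markers summed to 160 to 577 CPM over the Control libraries against 276 and 53.1 CPM for Cre, with Col1a1 at 83.9 ± 19.4 CPM over the Control libraries against 43.5 and 4.14 CPM for Cre. Dcn, which encodes decorin, had 4.71 to 158 CPM over the Control libraries against 189 and 28.3 CPM for Cre, the highest level being in Cre replicate 1. Col1a2, whose promoter drives the Cre, had 104 ± 77.4 CPM over the Control libraries against 3.63 and 1.38 CPM for Cre (edgeR unadjusted p = 0.00211, adjusted p = 0.323). The part of these cells in the values of the GIMAP genes was not tested.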

How the data were processed

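Raw counts per 3′ region for 7 libraries were deposited, per the file headers; FastQC 0.11.8, HISAT2 2.1.0, DESeq2 and mm10 are named in the submitters' processing notes, while the counter, strand setting and gene annotation were not stated in the sources used here. The authors' deposited table of Cre against Control holds p-values and FDR from DESeq2, a fold (ratio) of normalized values and its log2, and GC content as a percent of each gene, per the file headers. GENCODE M21 has the same build and the same coordinates for all 8 members and was used for exons, UTRs and coding sequences.

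Counts were summed over regions per gene. Totals were 1449739 to 1929899 counts. The test was edgeR 4.0.16 (R 4.3.3), quasi-likelihood, TMM, group as the only term, robust dispersion, filterByExpr (minimum count 10, total 15), two-sided, adjusted by Benjamini-Hochberg over 9854 genes with a threshold of 0.05; the script was tested on simulated data. CPM uses library totals. Standard errors come from the F statistic. Alternatives were other scalings and filters, DESeq2 1.42.0, limma 3.58.1 voom, each library left out, a replicate block and the most used region of each gene. A count of 0 allows up to 3 counts, 1.55 to 2.07 CPM here, counting error alone (without molecular identifiers, reads are not separate molecules). Members and lists were chosen with earlier results of these data known. Named genes were the 8 members, tested neighbours within 200 kb, 8 fixed genes and up to 2 of smallest p in each of 3 lists, 5 genes most like the family's sum, and sort markers; Tcf7, Map1lc3b and the other list and marker genes printed were added after their values were seen.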

Additional observations from a re-analysis of the deposited data

Results flagged for a closer look

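Of 20 sets of 5 Control values examined for a library far from the others, 2 were past the 95% critical value of Dixon's ratio (0.71), and chance passes about 1 in 20. Control replicate 2 had a Gimap4 share of 10.6% of GIMAP counts, with the other Control libraries at 15.1% to 16.2%. Control replicate 5 had a Gimap9 share of 27.7%, with the others at 13.6% to 17.7%; in the same library Gimap1 held 3.22%.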

How the results depend on the processing

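Beside edgeR's 1 call over all genes, the number was 43 without a filter, 642 with DESeq2, 3 with limma voom, 0 with library weights, 5 with the replicate block, and 1 to 219 with a library left out (219 without Cre replicate 1, 2 without Cre replicate 2). The replicate numbers are not known to pair the libraries. Correlations of deviations were 0.0036 and 0.0023 for numbers 1 and 2. With 2 Cre libraries each value recurs with its sign reversed for the other Cre library, so it cannot decide pairing. The members' median of −0.28 was −0.15 with DESeq2's size factors, −0.39 with upper-quartile factors, −0.18 without a filter and −0.15 with DESeq2. It was −0.10 with limma voom, −0.15 with the most used region and −0.35 with the replicate block. It ran from −0.41 to −0.15 with a library left out (without Cre replicate 2 and without Control replicate 1). The median over all genes, −0.39, moved as well, to −0.29 with DESeq2's size factors, −0.49 with upper-quartile factors and −0.12 with a stricter filter. It was −0.75 with limma voom, −0.95 with the replicate block, −1.32 without a filter, and −2.40 and −1.22 without Cre replicates 1 and 2. Its gap to the members' median is thus not stable, and the set of genes tested changes with the filter and with a library left out. In the 17 alternatives Gimap6, Gimap9 and Gimap3 stayed negative and Gimap8 positive, and the family's sum stayed lower in Cre in its 12. The exact permutation p of that sum rose from 0.0952 to 0.286 with TMM effective library sizes and to 0.476 with the most used region. Gimap4 turned to −0.026 with upper-quartile factors and ran from −0.037 (without Control replicate 2) to 0.21 with a library left out. Gimap7 turned to 0.0088 with the most used region. Gimap1 turned to 0.17 with limma voom and ran from −0.54 to 0.31 with a library left out (without Control replicates 5 and 1). Gimap5, at −0.00018, turned to 0.089 with size factors, 0.090 without a filter, 0.019 with a stricter one, 0.090 with DESeq2, 0.049 with limma voom, 0.087 with library weights, 0.0039 with the replicate block and 0.20 with the most used region, and ran from −0.85 to 0.56 with a library left out. For these the cause was not tested. With 2 Cre libraries, the exact permutation test cannot go below 0.0952, and with 1 left the lone library is assumed to vary like Control.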
